A study of Mus musculus with 9 samples.

Results

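Acetaminophen (APAP) was compared with its meta regioisomer (AMAP) in TAMH cells after 2 h, each compound at 2 mM, as the difference of 1 array from another for every gene. Of the 9 arrays of the series, 2 enter the comparison. APAP carries its hydroxyl group in the para position of the ring and AMAP in the meta position, and both carry the same acetamide group. All 9 arrays hold RNA of TAMH cells, a hepatocyte line from mice transgenic for TGF-alpha, whose labels give the strain as C57BL/6 and the tissue as liver. Cells grown to confluence were exposed for 2, 6 or 24 h to APAP at 2 mM, to AMAP at 2 mM or to neither (control), in 2 dishes per treatment according to the labels, and each treatment and time has 1 array. The series title calls AMAP the less hepatotoxic compound and points to p53 in what sets the responses apart. The labels do not say whether the 2 dishes were pooled, and 1 cell line stands for the hepatocyte. With 1 array per group the comparison has no replicate check, so differences are given as values without a p, and what stands in for a check is the agreement between probe sets of a gene. Values are log2 units after RMA, the authors' normalization, and differences are APAP minus AMAP, so a negative difference means lower in APAP.

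APAP is oxidised by cytochrome P450 enzymes to the quinone imine NAPQI, which binds glutathione and then the thiols of proteins, in the liver mainly those of mitochondria. AMAP is also oxidised to reactive products that bind protein, but it is known as the less toxic compound in mouse liver. Injured or stressed hepatocytes switch on transcription factors within the hour, among them AP-1 and ATF proteins, the ATF4 and CHOP branch that answers amino acid shortage and misfolded protein, and p53, which halts division through Cdkn1a and is held down by Mdm2.

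Genes were taken from probe sets with 1 symbol, and a gene was represented by its brightest probe set over the 9 arrays. This gave 12393 genes, of which 6769 reached 5.66, the median over all values of the table, on the higher of the APAP and AMAP arrays. Among these, 35 genes (0.517%) were at least 2-fold higher in APAP and 85 (1.26%) at least 2-fold lower. For scale, 0.873% to 1.20% of genes differed 2-fold between pairs of control arrays of different times, against 1.77% here in both directions together. The APAP and AMAP arrays correlated at 0.976 (Pearson r over 11504 probe sets, a description across probe sets of 2 arrays), and 88.2% of the genes lay within 0.5 log2 of each other. The genes just inside the 2-fold bound were Igtp (1.01), Cps1 (1.02) and Ehd2 (1.02) on the higher side and Junb (-1.01), Pdlim7 (-1.02) and Fam102a (-1.03) on the lower. Just outside lay Ifrd2 (0.99), Cybb (0.99), Aif1l (0.99), Cth (-0.997), Acox3 (-0.997) and Cpeb4 (-0.99). The plot of difference against level shows the lower genes reaching farther from 0 than the higher ones.

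**Figure D1:**
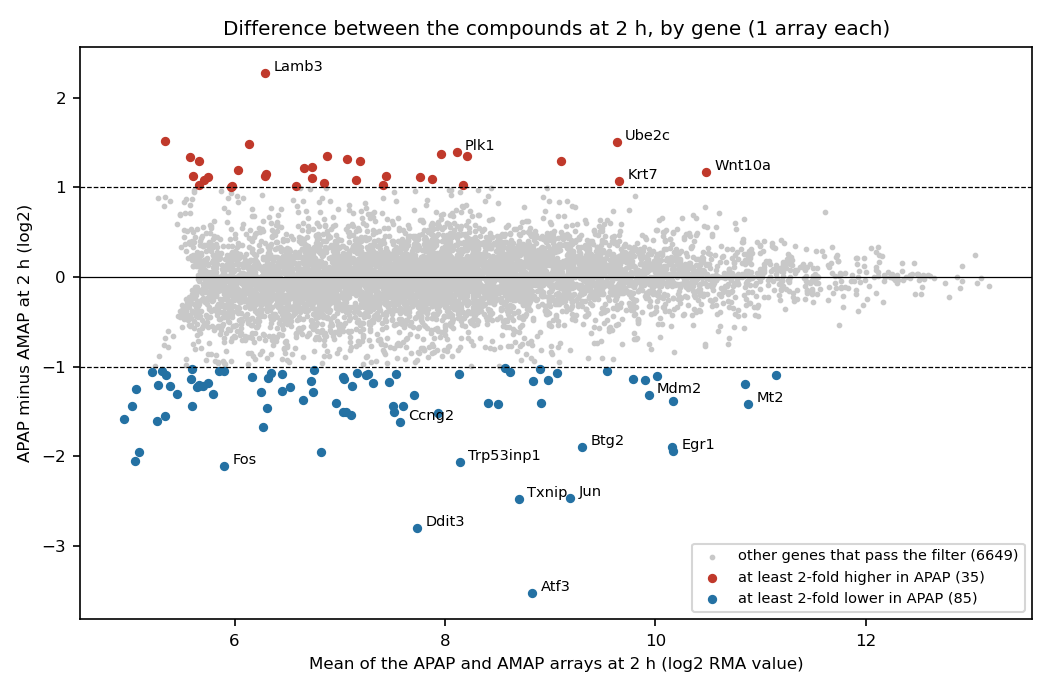
Difference between APAP and AMAP at 2 h (vertical axis, log2) against the mean of the APAP and AMAP arrays (horizontal axis, log2 RMA value), 1 point per gene for the 6769 genes that pass the filter on low values. Red points are the 35 genes at least 2-fold higher in APAP, blue points the 85 at least 2-fold lower, and dashed lines mark 2-fold; Atf3 (-3.53) and Lamb3 (2.28) are the extremes.

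Probe sets of a gene agreed in most cases. Of the 120 genes 2-fold apart, 37 had a further probe set that passed the filter, and in 33 of them (89.2%) every such probe set differed by at least 0.5 log2 in the same direction. Over all 2594 genes with a further passing probe set that share was 9.79%. As 88.2% of all genes that passed lay within 0.5 log2, few could follow, so the contrast with 89.2% does not measure agreement. All 6 higher genes with a further probe set followed, and 27 of 31 lower genes. Txnip read -2.48 and -2.59 on its 2 probe sets, Trp53inp1 read -2.06 and -2.11, and the 4 probe sets of the actin bundler Fscn1 lay between 0.70 and 1.37. Probe sets of 1 array share its RNA and are not replicates, and 83 of the 120 genes had no further passing probe set.

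**Figure D2:**
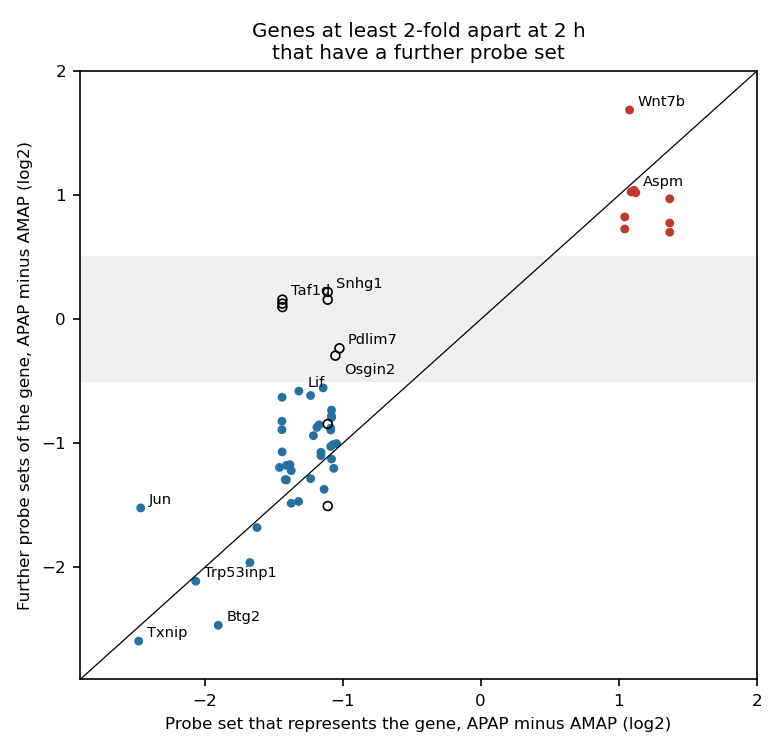
Difference on further passing probe sets (vertical axis, APAP minus AMAP, log2) against the probe set that represents the gene (horizontal axis) for the 37 genes 2-fold apart that have one. The diagonal is equality, the grey band covers less than 0.5 log2, and open circles are the 4 genes whose probe sets did not all follow (Taf1d, Snhg1, Osgin2, Pdlim7).

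Marker genes and the control probe sets of the arrays were checked first. All 7 measured hepatocyte markers were expressed, with Alb, the plasma albumin, at 13.02 in APAP and 13.09 in AMAP. Transcripts of other liver cells were low: 1 of 9 macrophage markers (Cd14), 2 of 9 stellate cell and fibroblast markers (Vim and Dcn) and 0 of 8 endothelial markers averaged at least 5.67 over the 9 arrays. That is the median of the probe sets' means, and genes reaching it are called expressed below. In bulk RNA of this kind fewer cells of a type and less RNA per cell cannot be told apart. Of the cholangiocyte markers, 4 of 5 were expressed, with a median difference of 0.56, and over all 5, Epcam included, the median was 0.08. Krt7 and Krt19 are described below. All 18 probe sets for the hybridisation spike-ins read higher on the APAP array, by 0.14 to 0.63 (median 0.44). They read only the transcripts bioB, bioC, bioD and cre, which are added before hybridisation, so they are not 18 separate spike-ins. Against the control array their median was -0.07 on the APAP array and -0.47 on the AMAP array, so AMAP was the low one. The poly-A spike-ins, added to the RNA, had a median difference of -0.11, and the 3 probe sets for beta-actin were higher in APAP by 0.25 to 0.37. The median of all 6700 expressed genes was 0.00, and the part of the spike-in difference in the values of genes was not tested.

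The AP-1 and ATF transcription factors, which dimerise and switch on early stress genes, were mostly lower in APAP than in AMAP. Atf3, a stress-induced ATF factor, read 7.07 in APAP, 10.59 in AMAP and 6.66 in control medium. Jun, the main DNA-binding partner of AP-1, read 7.96 in APAP, 10.42 in AMAP and 8.09 in control, and its other probe set read 6.59 in APAP, 8.11 in AMAP and 6.84 in control. For both genes the APAP and control arrays lay within 0.5 log2 of each other and the AMAP array stood alone, as the plot of levels shows. Fos, the partner of Jun, read 4.84 in APAP, 6.95 in AMAP and 5.26 in control; its mean is below the bound for expressed genes, so it is not among the counts that follow. Junb, a less active relative of Jun, differed by -1.01, Crem, a cAMP-responsive factor, by -0.96 on 1 probe set and -1.20 on another, and Atf5, an ATF relative induced with ATF4, by -0.83. Of 16 expressed members of the family, 14 were lower in APAP and 2 higher, with a median of -0.43. Among all expressed genes 50.4% were lower and 46.6% higher. None of the family was 1.5-fold higher and 6 were 1.5-fold lower, against 2.55% and 4.99% of all expressed genes. The 2 higher members were Fosl1 (0.45), whose further probe sets did not all follow, and Atf6 (0.05). Fosl1 read 7.70 in APAP, 7.25 in AMAP and 5.45 in control. Junb read 8.06 in APAP, 9.07 in AMAP and 7.15 in control. In both genes the APAP array also lay above control.

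**Figure D3:**
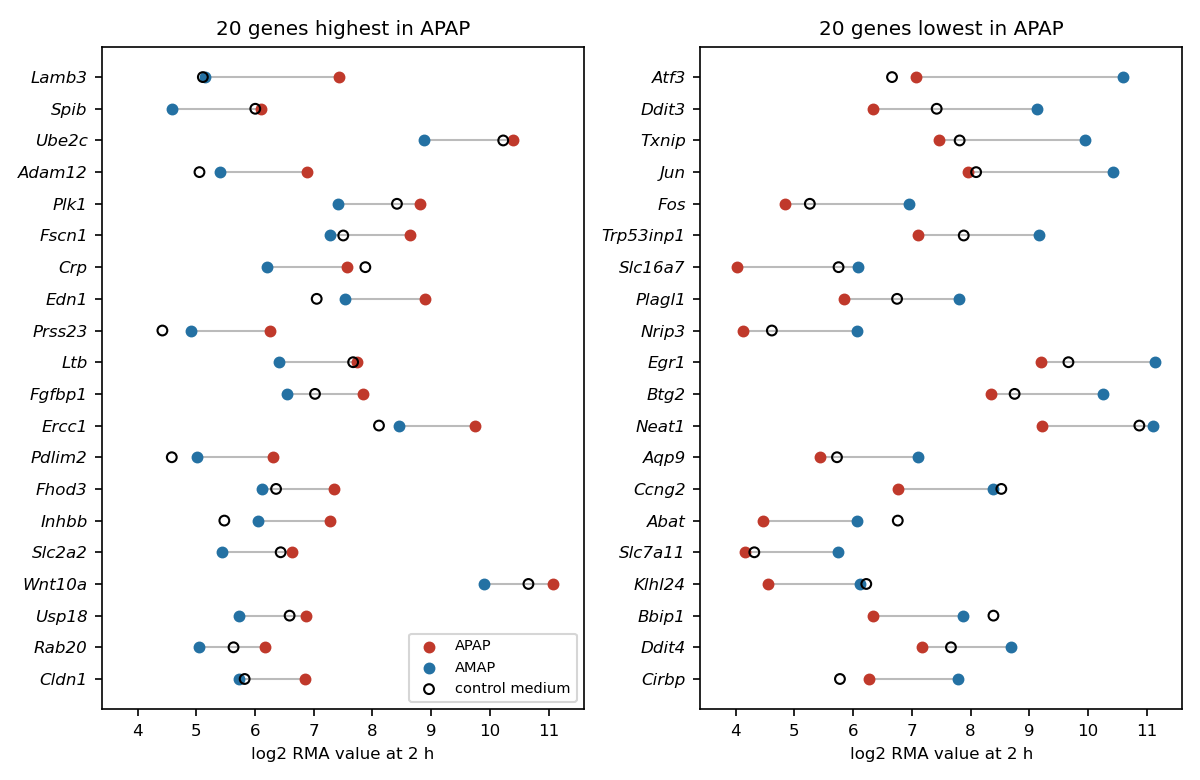
Level (horizontal axis, log2 RMA value) on the APAP (red), AMAP (blue) and control (open circles) arrays at 2 h, 1 array each. Shown are the 20 genes highest (left) and the 20 lowest (right) in APAP against AMAP, without genes whose further passing probe sets disagreed. Most of them, Atf3, Ddit3, Fos and Lamb3 included, have no further passing probe set, so their agreement could not be checked. Atf3, Jun, Fos and Btg2 have control values near APAP, while Neat1, Ccng2, Klhl24 and Abat have control values near or above AMAP.

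The ATF4 and CHOP response had the lowest median of the 37 pathway lists. Of 20 expressed members, 18 were lower in APAP, 2 had equal values, none was higher, and the median was -0.79. Over all expressed genes 50.4% were lower and 46.6% higher. Ddit3, which encodes CHOP, read 6.33 in APAP, 9.14 in AMAP and 7.42 in control, so that APAP lay below control by 1.09 and AMAP above it by 1.71. Ddit4, an inhibitor of the growth kinase mTORC1, read 7.17 in APAP, 8.69 in AMAP and 7.67 in control. Ppp1r15a, which directs the phosphatase that restarts translation, read 6.76 in APAP, 8.27 in AMAP and 6.78 in control. Gadd45a, a growth-arrest gene that is also a p53 target, read 6.31 in APAP, 7.81 in AMAP and 6.45 in control. The last pair had nearly equal values in APAP and control. Nupr1, a small stress-induced chromatin protein, differed by -1.21, with -0.94 on its other probe set, and Trib3, a pseudokinase induced by CHOP, differed by -0.96 with -1.16 on its other probe set. Chac1, which degrades glutathione, read 5.06 in APAP, 6.26 in AMAP and 6.09 in control, with the control near AMAP and not, as for Atf3, near APAP.

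The amino acid genes downstream of ATF4 were lower to a smaller degree. Of 26 expressed genes of amino acid synthesis, transport and tRNA charging, 24 were lower in APAP and 2 higher, with a median of -0.40. A level lower by 1.5-fold or more was seen in 7. Among all expressed genes 50.4% were lower and 4.99% were 1.5-fold lower. With the mean of all probe sets of each gene the median was -0.27. Slc7a11, the cystine carrier that feeds glutathione synthesis, read 4.15 in APAP, 5.74 in AMAP and 4.32 in control, and its mean is below the bound for expressed genes. Slc1a4, a carrier of neutral amino acids, differed by -1.22 to -1.48 on its 3 probe sets. Asns, asparagine synthetase, read 9.02 in APAP, 10.06 in AMAP and 9.62 in control and differed by -1.04 and -1.002 on its 2 probe sets. Cth, which makes cysteine, differed by -0.997, Pck2, the mitochondrial PEP carboxykinase, by -0.82 and Psph, the last enzyme of serine synthesis, by -0.77. For Asns, Cth and Psph the control lay between AMAP and APAP.

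Promoter windows from RefSeq (GRCm38.p6, 250 bases before to 50 after the start of the gene) were searched on both strands for the C/EBP-ATF composite, TGATGNAA, the element that ATF4 and CHOP dimers bind. It stood in 8 of 23 windows of the ATF4 and CHOP list (34.8%; 19 of 21 measured genes matched). In the amino acid list it stood in 9 of 26 windows (34.6%; 22 of 29 matched), against 3.97% of all 32851 windows. Such shares describe lists chosen by function and not this comparison. Among all genes 2-fold lower in APAP, list members included, the element stood in 8 of 78 windows (10.3%), and among those 2-fold higher in 0 of 35. The 7 expressed members of the ATF4 and CHOP list with it had a median of -0.96 and the 11 without it -0.75, so both subsets were lower. The windows of Atf3 (chr1:191183284-191183583, minus strand), Chac1 (chr2:119350992-119351291, plus strand) and Trib3 (chr2:152344011-152344310, minus strand) are printed on the strand of the gene because they carry the element and the genes were lower in APAP; capitals mark the match. Its first base lies at offset -110 from the start in Atf3, at -193 in Chac1 and at 14 in Trib3, negative offsets being before the start. A match is a string of letters and not a measured site.
Atf3: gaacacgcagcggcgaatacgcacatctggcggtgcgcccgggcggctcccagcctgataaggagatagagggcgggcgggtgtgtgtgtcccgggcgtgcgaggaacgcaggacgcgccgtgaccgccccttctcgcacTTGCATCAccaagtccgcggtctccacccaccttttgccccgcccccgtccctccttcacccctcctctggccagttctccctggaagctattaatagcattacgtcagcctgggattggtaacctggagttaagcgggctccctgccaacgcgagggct
Chac1: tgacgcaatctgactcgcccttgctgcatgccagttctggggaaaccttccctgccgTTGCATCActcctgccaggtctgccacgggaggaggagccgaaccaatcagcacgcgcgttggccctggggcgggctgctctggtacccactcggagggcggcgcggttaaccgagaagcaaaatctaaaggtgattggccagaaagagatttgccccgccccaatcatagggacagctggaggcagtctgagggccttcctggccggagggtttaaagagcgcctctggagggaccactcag
Trib3: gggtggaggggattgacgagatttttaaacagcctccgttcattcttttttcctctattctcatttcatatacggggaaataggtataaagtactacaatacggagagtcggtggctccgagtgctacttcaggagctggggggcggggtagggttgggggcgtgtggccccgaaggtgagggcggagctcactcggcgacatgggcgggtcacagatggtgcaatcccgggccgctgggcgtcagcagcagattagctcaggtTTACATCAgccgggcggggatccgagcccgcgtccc

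Txnip, the inhibitor of thioredoxin that also restrains glucose uptake, was lower in APAP by 2.48 log2, a level 5.57-fold higher in AMAP. It read 7.46 in APAP, 9.94 in AMAP and 7.81 in control on 1 probe set, and 7.47, 10.06 and 7.82 in the same order on the other. Most other thioredoxin and arrestin-domain genes did not move with it, and the median of the 14 expressed genes, Txnip included, was -0.06. Only Txnip and Mlxipl, the glucose-sensing factor that drives Txnip, were 1.5-fold lower. Of all expressed genes 4.99% were 1.5-fold lower. Mlxipl read 6.88 in APAP, 7.81 in AMAP and 8.31 in control. Srxn1, which repairs peroxiredoxins, differed by -0.57 and Prdx4, a peroxiredoxin of the endoplasmic reticulum, by -0.42, while Txnrd2 (0.37), the mitochondrial thioredoxin reductase, and Glrx2 (0.25), a glutaredoxin, were higher.

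The p53 targets were lower in APAP almost throughout. Of 36 expressed targets 35 were lower and 1, Pml, was higher (0.21). The median was -0.40, and 14 were 1.5-fold lower, of which 7 were 2-fold lower. Of all expressed genes, 50.4% were lower in APAP than in AMAP, 4.99% by 1.5-fold and 1.06% by 2-fold. Cdkn1a, the inhibitor of cyclin-dependent kinases, read 9.22 in APAP, 10.35 in AMAP and 8.67 in control, and its 2 probe sets differed by -1.13 and -1.37. Mdm2, the ubiquitin ligase that degrades p53, read 9.28 in APAP, 10.60 in AMAP and 9.18 in control, and its probe sets differed by -1.32 and -1.47. Trp53inp1, a p53-induced autophagy and death factor, read 7.11 in APAP, 9.17 in AMAP and 7.88 in control. Only Cdkn1a of these 3 was above control by over 0.5 log2 in APAP (0.55). Btg2, an antiproliferative gene, differed by -1.90 and -2.47 on its probe sets, Slc19a2, a thiamine carrier, by -1.42 and -1.29, and Plk2, a stress-responsive kinase, by -1.15. Set against control one compound at a time, 23 targets were higher and 11 lower in APAP (median 0.10), where 45.3% and 52.0% of all expressed genes were higher and lower. In AMAP 32 were higher and 4 lower (median 0.55), where 45.1% and 50.9% were. These comparisons share the control array, and Trp53 is not analysed here.

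The p53 decamer, the unit that pairs to form a p53 response element, was found in 14 of 44 promoter windows of the list (31.8%). Of 40 measured genes 32 were matched, and the share over all windows was 8.36%. A share in a list of known targets describes the list and not this comparison. Among all genes 2-fold lower in APAP the decamer was found in 5 of 78 windows (6.41%), and among those 2-fold higher in 1 of 35 (2.86%). The 12 expressed targets with it had a median of -0.32 and the 16 without it -0.48. Response elements of these genes are often farther from the start or in an intron, outside these windows. The windows of Mdm2 (chr10:117710709-117711008, minus strand) and Cdkn1a (chr17:29090729-29091028, plus strand) are shown because these genes stand at the centre of the p53 loop. Capitals mark the decamers, 1 in Mdm2 (offset -186) and 2 in Cdkn1a (offsets -73 and -51).
Mdm2: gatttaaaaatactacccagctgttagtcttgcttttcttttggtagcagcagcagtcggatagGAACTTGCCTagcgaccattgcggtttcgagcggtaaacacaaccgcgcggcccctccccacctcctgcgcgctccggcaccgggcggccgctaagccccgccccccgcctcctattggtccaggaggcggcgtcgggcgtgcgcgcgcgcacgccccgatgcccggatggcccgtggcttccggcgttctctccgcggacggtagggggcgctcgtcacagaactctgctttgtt
Cdkn1a: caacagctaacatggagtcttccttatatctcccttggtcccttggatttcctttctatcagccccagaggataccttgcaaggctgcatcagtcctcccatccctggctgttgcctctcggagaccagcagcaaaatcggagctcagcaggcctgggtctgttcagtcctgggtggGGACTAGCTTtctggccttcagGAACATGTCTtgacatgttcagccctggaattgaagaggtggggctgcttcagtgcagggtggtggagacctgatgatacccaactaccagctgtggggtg

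Genes of the BCL2 family, which decide over mitochondrial cell death, differed in both directions. Pmaip1, which encodes Noxa, read 9.05 in APAP, 9.95 in AMAP and 8.95 in control. Bbc3, which encodes Puma, read 6.41 in APAP, 7.29 in AMAP and 6.20 in control. In both the APAP array lay near control. Bcl2l11, which encodes Bim, differed by -0.93 on its brightest probe set, and its other 4 lay between -1.69 and -0.45. Bnip3, a mitochondrial mitophagy receptor, differed by -0.82, while Bid, which links death receptors to mitochondria, was higher by 0.64 and Bok, a pore-forming relative of Bax, by 0.47. Over 14 expressed members the median was 0.01. Among caspases and death receptors Casp12 (0.98), an endoplasmic reticulum caspase of rodents, Casp4 (0.60), an inflammatory caspase, and the inhibitor Birc2 (0.64) were higher, and the effector Casp6 (-0.69) was lower, with a median of -0.14 over 22.

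Immediate-early genes of growth signalling were lower in APAP with exceptions. Of 28 expressed Egr, Klf, Nr4a and Ier genes 21 were lower and 7 higher, with a median of -0.33, where 50.4% and 46.6% of all expressed genes were. Egr1, a zinc-finger factor induced by MAP kinase signalling, read 9.20 in APAP, 11.14 in AMAP and 9.67 in control, so that the control lay nearer APAP. Rhob, a GTPase induced by DNA damage, differed by -1.40 and Klf4, a factor of growth arrest, by -1.22 from levels of 5.09 in APAP and 6.31 in AMAP, with a mean below the bound for expressed genes. Zfp36, which destabilises cytokine transcripts, and Ier2 each differed by -0.76. The MAP kinase feedback genes were closer together, with a median of -0.08 over 17. The phosphatases Dusp10 (-0.85), Dusp16 (-0.78) and Dusp1 (-0.63) led it. After them came Phlda1 (-0.46), a growth-factor-induced gene, the phosphatase Dusp6 (-0.42) and Spred1 (-0.23), an inhibitor of the pathway.

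Among growth factors and cytokines the direction varied from gene to gene. Lif, an interleukin-6 family cytokine, read 7.05 in APAP, 8.36 in AMAP and 6.12 in control. Csf2, which encodes GM-CSF, read 8.46 in APAP, 9.18 in AMAP and 6.22 in control. Both were above control with either compound and higher in AMAP. Csf1, the macrophage growth factor, was higher in APAP by 0.74 with its 3 further probe sets following, and Inhbb, an activin subunit, was higher by 1.22. Vegfa (-0.92), the angiogenic factor, and Socs2 (-0.72), a feedback inhibitor of cytokine receptors, were lower. The chemokines Cxcl10 (-1.09) and Cxcl2 (-1.06, at 4.69 in APAP and 5.74 in AMAP) were lower, and Ccl5 (0.87), Ccl7 (0.39), Ccl9 (0.34) and Cxcl16 (0.25) were higher. In the EGF receptor family Grb7, an adaptor of the receptor ERBB2, was higher by 1.02, while Hbegf (-0.46), a ligand, and Egfr (-0.36) were lower. Lrig1 (0.33), Adam17 (-0.33) and Adam10 (-0.07) completed the members named, with a median of -0.07 over 9 expressed genes.

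Metallothioneins, which bind zinc and other metals and scavenge oxidants, were lower in APAP. Mt2 read 10.18 in APAP, 11.59 in AMAP and 10.49 in control. Mt1 read 10.60 in APAP, 11.69 in AMAP and 10.99 in control on a probe set of the kind that can match related transcripts, and its other probe set, dim at 4.52 in APAP and 4.38 in AMAP, read 0.13 higher. The iron exporter Slc40a1 differed by -0.88. Slc39a14, which imports zinc and iron, was higher by 0.52, and Ireb2 (-0.48), an iron-sensing RNA-binding protein, and Alas1 (-0.43), the first enzyme of haem synthesis, were lower. The median over 13 expressed genes of metal handling was -0.30.

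Glutathione and NRF2 genes were lower in APAP by smaller steps. Of 27 expressed NRF2 targets 23 were lower and 4 higher, with a median of -0.31, but only 2 were 1.5-fold lower. Among all expressed genes 50.4% were lower and 4.99% were 1.5-fold lower. Sqstm1, the autophagy receptor p62, read 10.25 in APAP, 11.45 in AMAP and 11.05 in control. Gsta3 (-0.81), Gsta4 (-0.57) and Gstm1 (-0.48), glutathione transferases, were lower in APAP, and each read higher in control than in AMAP. Of 23 expressed genes of glutathione and cysteine, 19 were lower and 4 higher, with a median of -0.33, 7 of them 1.5-fold lower. Gclc and Gclm, the subunits that catalyse the first step of glutathione synthesis, differed by -0.33 and -0.42. Gpx3 (-0.92), a secreted glutathione peroxidase, Mgst1 (-0.77) and Mgst2 (-0.74), membrane glutathione transferases, were lower. Against the shared control array the median of the glutathione list was -0.48 for APAP and -0.03 for AMAP. Of the drug metabolism genes, a list that shares members such as Gsta3 and Gstm1 with the NRF2 list, 21 of 59 measured were expressed, with a median of -0.19. Cyp2e1, the P450 best known for oxidising APAP, was at 3.05 in APAP and 3.06 in AMAP, below the filter on both. Tiparp (-0.64), a target of the aryl hydrocarbon receptor, Cyp4v3 (-0.44) and Abcc2 (-0.37), a bile canalicular exporter, were lower, and Ces2g (0.49), a carboxylesterase, was higher.

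**Figure D4:**
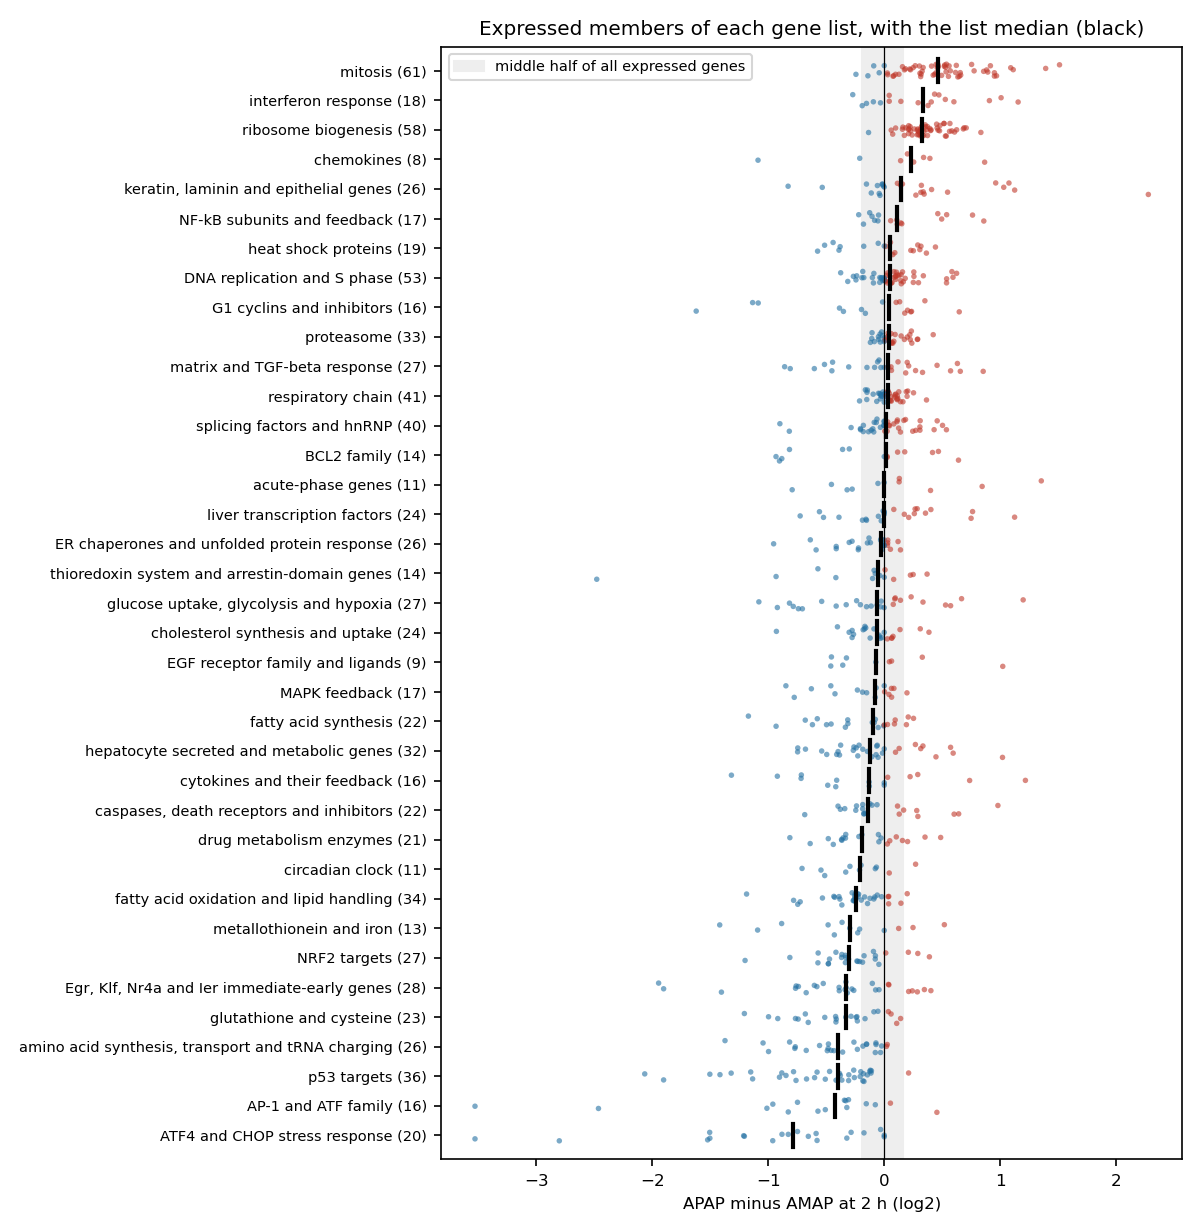
APAP minus AMAP at 2 h (horizontal axis, log2) for every expressed member of the 37 pathway lists, ordered by list median (black bars), with the number of expressed members in brackets. Red points were higher and blue points lower in APAP, and the grey band is the interquartile range of all 6700 expressed genes; mitosis (0.46) has the highest median and the ATF4 and CHOP response (-0.79) the lowest.

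Mitotic genes were higher in APAP as a group. Of 61 expressed members 56 were higher, 4 lower and 1 equal, with a median of 0.46, the highest of the 37 lists. A 1.5-fold higher level was seen in 19. Of all expressed genes 46.6% were higher and 2.55% were 1.5-fold higher. Ube2c, the ubiquitin-conjugating enzyme of the anaphase-promoting complex, read 10.39 in APAP, 8.88 in AMAP and 10.23 in control. Plk1, the kinase of mitotic entry, read 8.81 in APAP, 7.41 in AMAP and 8.42 in control. Aspm, a spindle-pole protein, read 8.32 in APAP, 7.20 in AMAP and 8.51 in control. In all 3 the APAP and control arrays lay within 0.5 log2 and the AMAP array was the low one. Aurkb, the kinase of the chromosomal passenger complex, differed by 1.09 and 1.03 on its probe sets, Nusap1, a spindle protein, by 0.97 and Cenpf, a kinetochore protein, by 0.95. The 4 lower genes were Pttg1 (-0.24), Psrc1 (-0.14), Plk4 (-0.09) and Spc25 (-0.04), and they were named after their values were seen. Against the shared control array the median was 0.01 for APAP and -0.45 for AMAP. The hybridisation spike-ins ran the same way, with medians of -0.07 for APAP and -0.47 for AMAP, and their part in this result was not tested.

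Replication genes did not share this shift. Of 53 expressed genes of DNA replication and S phase 33 were higher and 17 lower, with a median of 0.05. Over all expressed genes 46.6% were higher and 50.4% lower. The highest were Pold2 (0.62), a subunit of DNA polymerase delta, Tk1 (0.59), thymidine kinase, Pola1 (0.58), the primase-bound polymerase, and Gins1 (0.54) and Rfc4 (0.54), parts of the helicase and of the clamp loader. Ccne2, the S-phase cyclin E2, was lower by 0.50 at 5.98 in APAP and 6.48 in AMAP, with a mean below the bound for expressed genes. Among G1 genes Ccng2, a cyclin of arrested cells, differed by -1.62 and -1.68 on its probe sets and Ccnd2, cyclin D2, by -1.09 with its 3 further probe sets following. Ccnd1, cyclin D1, was higher by 0.65, with 0.83 and 0.36 on its other probe sets. Ccng1 (-0.39), a p53 target, and Rb1 (-0.35), the retinoblastoma protein, were lower, and the median of 16 G1 genes was 0.04.

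The promoters of mitotic genes were searched for the CHR, TTTGAA, the element through which the DREAM and MuvB complexes time cell-cycle genes, and for CCAAT, the site of NF-Y. A CHR stood in 37 of 57 windows of the mitosis list (64.9%; 53 of 64 measured genes matched), against 17.9% of all windows. CCAAT stood in 43 (75.4%), against 37.4% of all windows. Of 48 CHR matches 34 lay within 50 bases of the start. The 33 expressed genes with a CHR had a median of 0.52 and the 17 without it 0.25, both above the median of all expressed genes. The list shares describe genes chosen by function and not this comparison. Among all genes 2-fold higher in APAP, list members included, the CHR and CCAAT each stood in 10 of 35 windows (28.6%). Among those 2-fold lower, the CHR stood in 5 of 78 windows (6.41%) and CCAAT in 39 of 78. CCAAT was thus less frequent among the higher genes than among the lower ones, unlike the CHR. The windows of Ube2c (chr2:164769679-164769978, plus strand), Plk1 (chr7:122159185-122159484, plus strand) and Aurka (chr2:172370521-172370820, minus strand) are printed because Ube2c and Plk1 are the members farthest apart and Aurka, the spindle kinase, which was chosen after its values were seen, was higher by 0.92. Capitals mark the CHR, which in Ube2c is read on the opposite strand.
Ube2c: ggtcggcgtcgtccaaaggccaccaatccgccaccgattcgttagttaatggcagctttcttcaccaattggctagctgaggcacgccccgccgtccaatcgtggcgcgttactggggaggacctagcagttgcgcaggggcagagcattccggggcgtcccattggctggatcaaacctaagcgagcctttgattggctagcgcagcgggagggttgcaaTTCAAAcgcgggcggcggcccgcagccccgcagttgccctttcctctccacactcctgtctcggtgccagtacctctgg
Plk1: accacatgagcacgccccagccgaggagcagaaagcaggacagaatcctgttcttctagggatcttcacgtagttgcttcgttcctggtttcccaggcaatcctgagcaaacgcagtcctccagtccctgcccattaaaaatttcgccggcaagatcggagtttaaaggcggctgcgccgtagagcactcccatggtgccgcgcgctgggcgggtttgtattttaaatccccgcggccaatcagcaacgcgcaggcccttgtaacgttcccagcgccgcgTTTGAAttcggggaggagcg
Aurka: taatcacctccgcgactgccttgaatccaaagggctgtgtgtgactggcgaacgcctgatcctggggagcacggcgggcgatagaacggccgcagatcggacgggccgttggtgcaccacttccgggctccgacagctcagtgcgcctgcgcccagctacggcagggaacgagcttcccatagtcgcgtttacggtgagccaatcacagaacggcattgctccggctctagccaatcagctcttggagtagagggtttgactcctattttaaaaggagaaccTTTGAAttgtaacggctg

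Ribosome biogenesis genes, which process ribosomal RNA in the nucleolus, were higher in APAP by small and even steps. Of 58 expressed members 57 were higher and 1, Rrn3, lower (-0.14), with a median of 0.33, but only 6 were 1.5-fold higher and none 2-fold. The shares over all expressed genes were 46.6% higher and 2.55% 1.5-fold higher. Nop16, a nucleolar protein, read 9.50 in APAP, 8.67 in AMAP and 8.80 in control. Mybbp1a, a nucleolar Myb-binding protein, read 10.70 in APAP and 10.01 in both AMAP and control. Bysl, which matures the small subunit, read 8.60 in APAP, 7.92 in AMAP and 7.76 in control. In these genes the AMAP array lay near control and APAP was the high one, unlike the mitotic genes. Utp18 (0.71) and Heatr1 (0.62), parts of the small-subunit processome, were also higher, as was Polr1e (0.62), an RNA polymerase I subunit that is below the bound for expressed genes. The E-box CACGTG, the site of Myc, stood in 14 of 60 windows of the list (23.3%), against 7.15% of all windows. Among all genes 2-fold higher in APAP it stood in 2 of 35 windows (5.71%), and among those 2-fold lower in 8 of 78 (10.3%). The list median was 0.33 with the E-box (14 genes) and 0.33 without it (36 genes).

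Epithelial and cell-shape genes held the farthest gene on the higher side. Lamb3, the beta chain of laminin-332, read 7.43 in APAP, 5.16 in AMAP and 5.11 in control, 4.85-fold higher in APAP than in AMAP, on its only probe set. Krt7 read 10.19 in APAP, 9.12 in AMAP and 8.75 in control, and Krt19 read 8.69 in APAP, 7.66 in AMAP and 6.58 in control; both are keratins of bile duct epithelium. The remaining cholangiocyte markers Sox9 (0.08) and Cftr (0.06) were nearly equal, and Epcam, at 4.14 in APAP and 4.68 in AMAP, was not expressed. Cldn1, a tight-junction claudin, was higher by 1.12 and 1.02 on its probe sets and Gja1, the gap-junction protein connexin 43, by 0.96, while Itga6, a laminin receptor, was lower by 0.83. Over 26 expressed genes of this list the median was 0.15. Of matrix genes Adam12 (1.48), a metalloprotease below the bound for expressed genes, Timp3 (0.85), a protease inhibitor, Actn1 (0.66), an actin crosslinker, and Thbs1 (0.63), thrombospondin, were higher. Plat (-0.86), the tissue plasminogen activator, Tgfbr1 (-0.81, with -1.16 and -1.19 on its further probe sets), a TGF-beta receptor, and Ccn1 (-0.60), a matrix signalling protein, were lower, and the median of 27 was 0.03.

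Interferon genes were mostly higher in APAP, while NF-kB genes were divided. Of 18 expressed interferon genes 13 were higher and 5 lower, with a median of 0.34, and 4 were 1.5-fold higher. Over all expressed genes 46.6% were higher, 50.4% lower and 2.55% 1.5-fold higher. Usp18, which removes ISG15 from proteins, read 6.88 in APAP, 5.72 in AMAP and 6.59 in control, and Igtp, an immunity GTPase, read 6.47 in APAP, 5.46 in AMAP and 6.33 in control, so that AMAP was the low array. Isg20 (0.91), an exonuclease, Psmb8 (0.60), an immunoproteasome subunit, Ifi35 (0.53) and Ifih1 (0.47), a sensor of viral RNA, were higher. Of 17 expressed NF-kB genes 10 were higher and 7 lower. Traf1 (0.86), Bcl3 (0.76), Nfkbie (0.50) and Tnip1 (0.46), regulators in the pathway, and Vcam1 (0.54), an adhesion molecule, were the highest of them. Ptgs2, the inducible cyclooxygenase, was lower by 1.26 at 4.43 in APAP and 5.69 in AMAP and is below the bound for expressed genes; the median of the 17 expressed NF-kB genes was 0.11.

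Genes of fat use and storage were mostly lower in APAP. Of 34 expressed genes of fatty acid oxidation and lipid handling 29 were lower and 5 higher, with a median of -0.25, and 4 were 1.5-fold lower. The shares over all expressed genes were 50.4% lower and 4.99% 1.5-fold lower. Cd36, a fatty acid carrier, read 5.16 in APAP, 6.34 in AMAP and 5.89 in control. Crot (-0.78), a peroxisomal acyltransferase, Fabp1 (-0.75), the liver fatty acid binding protein, Pxmp4 (-0.72), a peroxisomal membrane protein, Acadvl (-0.53), an acyl-CoA dehydrogenase, and Cpt1a (-0.43), the gate of mitochondrial oxidation, were lower, and each read higher in control than in AMAP. Ppara, the receptor that drives these genes, went the other way, at 8.002 in APAP, 6.88 in AMAP and 6.92 in control. Dgat2 (-1.17) and Dgat1 (-0.68), which make triglyceride, Acss2 (-0.62), an acetyl-CoA synthetase, Lpin1 (-0.58), a phosphatidate phosphatase, and Acsl4 (-0.50), an acyl-CoA synthetase, were lower in a fatty acid synthesis list with a median of -0.09 over 22.

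Hepatocyte secreted and metabolic genes had a median of -0.13 over 32. Rbp4 (-0.75), the retinol carrier, and Apob (-0.68), the core protein of VLDL, were lower, while Cps1 (1.02), the first enzyme of the urea cycle, Serpina10 (0.59) and Apoa2 (0.57) were higher. Of the liver transcription factors Foxa1 (0.76) and the bile acid receptor Nr1h4 (0.75) were higher, Creb3l3 (-0.72), Rora (-0.56) and Hhex (-0.52) were lower, and the median of 24 was 0.00. The acute-phase genes also had a median of 0.00 over 11: Crp read 7.56 in APAP, 6.20 in AMAP and 7.88 in control, Lcn2, lipocalin 2, was higher by 0.84, Lbp, which binds endotoxin, was lower by 0.79, and Orm1 (-0.46), Itih4 (0.40) and Hpx (-0.32) lay between them. Slc2a2, the hepatocyte glucose carrier, read 6.63 in APAP, 5.43 in AMAP and 6.44 in control and was the highest of 27 expressed genes of glucose and hypoxia, whose median was -0.06. In that list Slc16a7, a monocarboxylate carrier, read 4.03 in APAP, 6.08 in AMAP and 5.75 in control and, like Epas1 (-1.23), a hypoxia factor, is below the bound for expressed genes. Ndrg1 (-1.08, with all 4 further probe sets following), a hypoxia-induced gene, was lower, and Pfkfb3 (0.67), which activates glycolysis, was higher. Among cholesterol genes Abca1 (-0.93), the cholesterol exporter, stood apart from Pmvk (-0.40), Srebf2 (0.39), Fdft1 (0.31), Scap (-0.30) and Hmgcs1 (-0.28), and the median of 24 was -0.07. Clock genes were lower in 9 of 11, with a median of -0.21, led by Tef (-0.71), Nr1d2 (-0.55) and Cry2 (-0.51). The share of lower genes was 50.4% over all expressed genes.

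Several housekeeping groups were nearly equal between the compounds. The respiratory chain (41 expressed genes, median 0.03), the proteasome (33, 0.04), splicing factors and hnRNP proteins (40, 0.02), heat shock proteins (19, 0.05) and ER chaperones with the unfolded protein response (26, -0.03) had medians within 0.1 of 0. No respiratory chain, proteasome or heat shock gene was 1.5-fold apart, where 2.55% of all expressed genes were 1.5-fold higher and 4.99% lower. Their extremes were Ndufb10 (0.36), a complex I subunit, Psma5 (0.42), a core proteasome subunit, and Hspb1 (-0.57), a small heat shock protein, with Hsph1 (0.44) on the other side. Within the ER list Dnajb9 (-0.95), a cochaperone, Ern1 (-0.74), the IRE1 sensor, which is below the bound for expressed genes, Edem1 (-0.64), which sends misfolded proteins to degradation, and Ero1a (-0.59), an oxidase of disulphide formation, were lower. Within the splicing list the kinases Clk1 (-0.90) and Clk4 (-0.82), which phosphorylate splicing factors, were the 2 genes 1.5-fold lower.

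Other genes at the lower end belong to none of these groups. Plagl1, a zinc-finger factor of growth arrest, read 5.84 in APAP, 7.80 in AMAP and 6.75 in control. Neat1, the long noncoding RNA that builds paraspeckles, read 9.21 in APAP, 11.11 in AMAP and 10.87 in control, so that here APAP was the array that stood apart. Aqp9, a glycerol channel of hepatocytes, differed by -1.67 and -1.96 on its probe sets. Abat, which degrades GABA, read 4.46 in APAP, 6.06 in AMAP and 6.76 in control, Klhl24 read 4.56 in APAP, 6.11 in AMAP and 6.22 in control, and Bbip1, a subunit of the BBSome of cilia, read 6.33 in APAP, 7.87 in AMAP and 8.39 in control. Cirbp, the cold-inducible RNA-binding protein, read 6.28 in APAP, 7.79 in AMAP and 5.78 in control, and Nrip3, at 4.12 in APAP and 6.07 in AMAP, differed by -1.95. Abat, Klhl24 and Bbip1 thus had their highest level in control and their lowest in APAP.

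At the higher end Spib, an ETS-family factor, read 6.10 in APAP, 4.58 in AMAP and 6.00 in control, and Wnt10a, a Wnt ligand, read 11.07 in APAP, 9.90 in AMAP and 10.66 in control. Ltb, lymphotoxin beta, read 7.73 in APAP, 6.41 in AMAP and 7.67 in control. In these 3 genes AMAP was the low array, as it was for the hybridisation spike-ins. Edn1, the endothelin 1 precursor, read 8.89 in APAP, 7.54 in AMAP and 7.05 in control, and Ercc1, a subunit of a DNA repair nuclease, read 9.75 in APAP, 8.45 in AMAP and 8.11 in control, with APAP the high array. Fscn1 (1.37), Prss23 (1.34), a serine protease, Fgfbp1 (1.30), which carries FGF, Pdlim2 (1.29), Fhod3 (1.23), an actin-nucleating formin, and Rab20 (1.13), a GTPase, complete the 20 highest genes with those named above.

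Among the genes 2-fold apart with a further passing probe set, 4 had probe sets that did not all follow. Taf1d, part of the RNA polymerase I factor SL1, read -1.44 on its brightest probe set but 0.16, 0.13 and 0.10 on 3 others. Snhg1, a host gene of small nucleolar RNAs, read -1.11, -1.50 and -0.84 on 3 probe sets and 0.22 and 0.16 on 2. Osgin2 read -1.05 and -0.29, and Pdlim7 read -1.02 and -0.23. Whether these probe sets see different transcripts of the gene was not tested. Below 2-fold, further probe sets also failed to follow for some genes named above, among them Bid, Heatr1, Polr1e, Gja1, Abca1, Edem1, Slc39a14, Gclc and Cpt1a.

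Relative to the control array, the genes 2-fold lower in APAP were not of 1 kind. The control value lay nearer APAP than AMAP in 54 of the 85 and nearer AMAP in 31. It lay between both compounds in 60, above both in 9 and below both in 16. Among the 35 genes 2-fold higher in APAP it lay nearer APAP in 17 and nearer AMAP in 18. The same control value enters both distances, so these counts describe the genes and test nothing.

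The same contrast at 6 and 24 h rests on arrays that were less alike. The lower quartile of all probe sets was 3.92 on the APAP array of 6 h, 3.82 on that of 24 h and 3.84 on the AMAP array of 24 h, against 3.50 to 3.63 on the other 6 arrays. At 6 h 2.81% of expressed genes were 2-fold higher and 7.73% 2-fold lower in APAP, and at 24 h 1.48% and 1.40%, against 0.403% and 1.06% at 2 h. Of the 85 genes 2-fold lower at 2 h, 36 were lower and 49 higher at 6 h, and 46 were lower and 38 higher at 24 h. Of all expressed genes 44.7% were lower and 54.7% higher at 6 h, and 47.3% were lower and 52.2% higher at 24 h. Of the 35 higher genes, 20 were higher and 15 lower at 6 h, and 21 were higher and 14 lower at 24 h. The p53 targets had medians of -0.40 at 2 h, 0.08 at 6 h and 0.46 at 24 h. The ATF4 and CHOP response had medians of -0.79, 0.42 and -0.47 at these times, and mitosis 0.46, -0.09 and 0.23. Medians of all expressed genes were 0.00, 0.07 and 0.02. Egr1 (-1.46 at 6 h and -0.65 at 24 h), Klf4 (-1.34 and -0.95) and Jun (-0.72 and -0.999) kept their sign, and Ddit3 (0.99 and 0.11) did not. Since the arrays of 6 and 24 h stand apart, these values are set beside those of 2 h without a test of change over time.

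**Figure D5:**
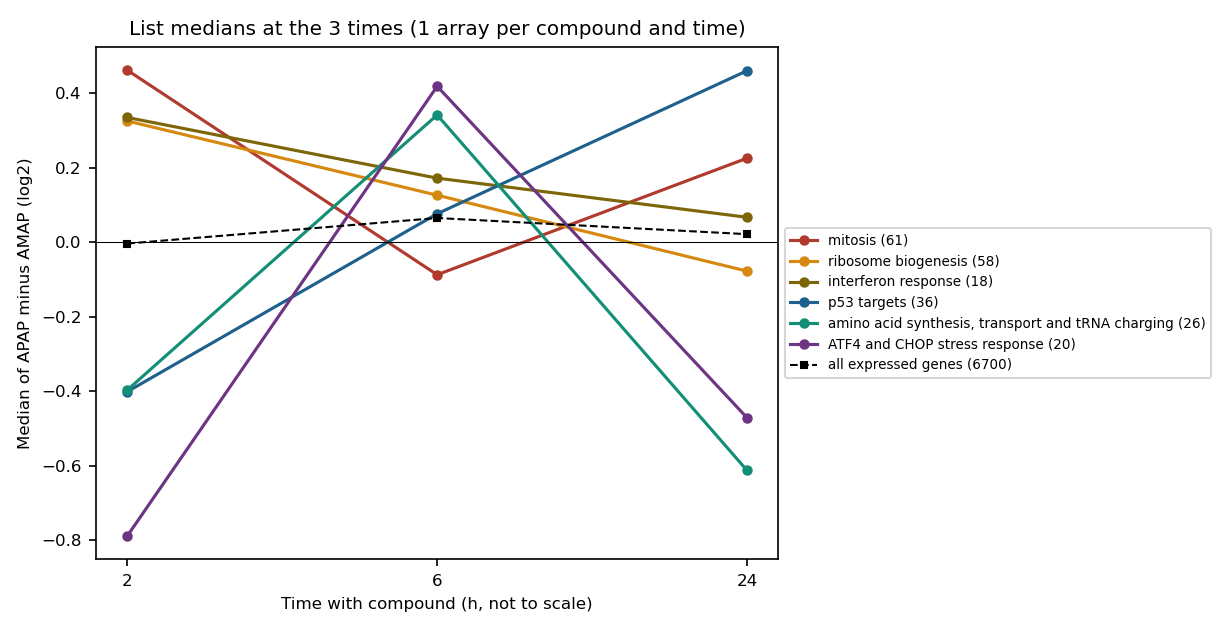
Median of APAP minus AMAP (vertical axis, log2) over the expressed members of 6 lists and over all 6700 expressed genes at 2, 6 and 24 h (horizontal axis, not to scale), 1 array per compound and time. The p53 list goes from -0.40 at 2 h to 0.46 at 24 h, while all expressed genes stay within 0.1 of 0.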

How the data were processed

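Each of the 9 arrays holds RNA of 1 treatment and time, as its title states. Per the submitters' processing notes, the authors used RMA in the Expression Console of Affymetrix, and they deposited 1 log2 value per probe set and array. Its version, and whether RMA was run on all arrays at once, is not given in the sources used here. As the method brings arrays towards a shared distribution before probe sets are summarised, these values do not measure RNA per cell, and contrasts of weakly hybridised probe sets come out too small. The lower quartiles of the deposited arrays still ran from 3.50 to 3.92. The table held 22690 probe sets, 64 of them controls. GEO's platform annotation, which can be old, gave 1 symbol for 20380, several for 691 and none for 1555. No symbol could be updated through its gene ID.

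Each gene was read from whichever of its 1-symbol probe sets was brightest on average. It was called at 2-fold (1 log2) where the higher of the APAP and AMAP arrays reached 5.66, the median of all values; a further probe set passing this filter followed when it differed by at least 0.5 log2 in the same direction. A gene counted as expressed when it averaged at least 5.67 over the arrays. The 37 pathway lists and 5 marker lists share genes, and the members and lists were chosen with earlier results of these data known. Listed genes without a probe set of 1 symbol are not analysed here, and neither is Trp53, which is in none of the lists.

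Named genes were the 20 highest and 20 lowest whose further passing probe sets, where there were any, agreed. Also named were up to 6 members of each list with the largest difference and members 1.5-fold against their list's median. Up to 8 genes whose probe sets disagreed and genes at the 2-fold bound were added. Cdkn1a, Mdm2, Atf3, Ddit3, Jun, Txnip, Krt7, Krt19, Plk1 and Ube2c were named in any case. Others were chosen after their values were seen, including Gclc, Gclm, Cyp2e1, Alb and the further probe sets given for single genes. Python 3.11.15 with pandas 2.3.3 and numpy 2.4.6 was used, with limma 3.58.1 in R 4.3.3 for cyclic loess, and the counting was tested on simulated arrays. Alternatives were a 1.5-fold bound, no filter, a filter on both arrays, the mean, median or agreement of all probe sets, cyclic loess, median centring and, chosen after seeing the data, no probe sets ending in _x_at or _s_at. The number of arrays limits the precision.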

Additional observations from a re-analysis of the deposited data

Results flagged for a closer look

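Some genes at least 2-fold apart at 2 h were 2-fold apart the other way at a later time, counting only those that reached 5.66 on the higher array of the later time; every array has 1 sample, so the difference between times was not tested. At 6 h 4 of the 85 genes lower in APAP at 2 h were 2-fold higher in APAP: Arid5a by 1.004, Chac1 by 1.32, Lgals2 by 1.04 and Ndrg1 by 1.002. Of all expressed genes 2.81% were 2-fold higher at 6 h. At 6 h 5 of the 35 genes higher in APAP at 2 h were 2-fold lower in APAP: Celf2 at -1.08, Ms4a4b at -1.38, Ppara at -1.26, Cldn1 at -1.26 and Fscn1 at -2.33. The share of all expressed genes 2-fold lower at 6 h was 7.73%. At 24 h 4 of the 85 genes lower in APAP at 2 h were 2-fold higher in APAP: Txnip by 1.21, Abat by 1.13, Pm20d1 by 2.14 and Ctsf by 1.08. Over all expressed genes 1.48% were 2-fold higher at 24 h. At 24 h Fscn1 (-1.09) and Ms4a4b (-1.40) were also lower in APAP, but both arrays were below that bound. The APAP arrays of 6 and 24 h and the AMAP array of 24 h have the shifted lower quartile given above, and its part in these values was not tested.

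A probe set that names no gene also differed. The array's control probe set for the murine B2 repeat, a short interspersed element present in many copies, read 7.95 in APAP, 8.86 in AMAP and 7.99 in control at 2 h. The AMAP array was 0.87 above its control, and it also lay above the highest of the 3 control arrays, 8.13. Another probe set for this repeat, near the top of the scale, read 13.39 in APAP, 13.66 in AMAP and 13.42 in control.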

How the results depend on the processing

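The counts of 35 higher and 85 lower genes came to 194 and 358 at 1.5-fold and to 23 and 56 when both arrays had to reach the median of all values, as these bounds by construction take more or fewer genes. The other alternatives gave 30 to 45 higher and 67 to 101 lower genes, and every one of them had more lower than higher genes. Median centring gave 45 and 83, with the median of all expressed genes at 0.04, and cyclic loess 36 and 89. The share of genes 2-fold apart whose further probe sets followed was 56.8% when they had to differ by 1 log2, against 89.2% at 0.5. Taf1d turned to 0.11 with the median of its passing probe sets and to 0.16 without probe sets ending in _x_at or _s_at, and Mt1 turned to 0.13 without them; the construction leaves only the other probe sets of these genes. Of 39 list medians, none was called reversed in any alternative, and 0 to 3 moved, the most with no filter on low values. A median within 0.1 of 0 could not be called reversed, whatever its sign became. With no filter the median of the G1 genes went from 0.04 to -0.01. That alternative gave the largest shift, in the cholangiocyte markers, to 0.08 from 0.56. No paired analysis was possible because each group has 1 array. With 1 array per group no array could be left out, and RMA compresses differences of dim probe sets, so folds of genes near the filter, such as Fos, Slc7a11 and Klf4, are the least certain in size.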

Other observations

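Further probe sets also pointed to 13 genes whose representative probe set stayed under 2-fold. Skil, a repressor of SMAD signalling, read 8.83 in APAP, 9.28 in AMAP and 7.93 in control on its brightest probe set, but -1.61 on its other probe set. Malat1, a long noncoding RNA of nuclear speckles, read -0.52 on its brightest probe set, and its 4 further probe sets lay between -1.85 and -0.54. Gch1, which makes the cofactor tetrahydrobiopterin, differed by -0.94 and -1.02, and Nectin2, an adhesion molecule, by 0.98 and 1.21. Racgap1, a GTPase regulator of cytokinesis, was higher by 0.45 and 1.005. Pnkd read -0.01 on its brightest probe set and 1.15 on the other. These genes were chosen after their values were seen.

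Probe sets outside the gene table held a few more differences. Of those with several symbols, 2 passed 2-fold upwards in APAP and 7 downwards, and of those with no symbol, 2 did so upwards and 6 downwards. The control probe sets for mouse beta-actin, 3 in number, were higher in APAP by 0.25 to 0.37, and those for Gapdh differed by -0.08 to -0.05.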
